A study of Mus musculus with 12 samples.

Results

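The cytosolic ribosomal protein (RP) genes were taken as all genes whose symbol is Rps or Rpl followed by a number, with at most 1 letter and 1 further digit, or Rplp followed by a digit. This gave 82 of the 20295 genes in the count table. They comprised 30 genes of the small (40S) subunit, 43 of the large (60S) subunit, the 3 genes of the acidic stalk (Rplp0, Rplp1 and Rplp2) and 6 paralogs whose symbol carries a trailing l (Rpl22l1, Rps27l, Rpl3l, Rpl7l1, Rpl10l and Rpl39l). The rule used names only, and no measured value. It leaves out some genes that also encode ribosomal proteins, such as Rpsa, Fau, Gnb2l1 and Rpl36al. These are counted with the related genes, where values are given for Gnb2l1 and Fau alone.

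Ribosomal proteins assemble with ribosomal RNA in the nucleolus into the subunits that translate mRNA, and most of them are needed in equal numbers per ribosome. Many of their mRNAs begin with a 5′ terminal oligopyrimidine (TOP) tract, a cytosine followed by a run of pyrimidines, through which mTORC1 and the RNA-binding protein LARP1 set their translation and stability together. Their transcripts are also the source of a very large number of processed pseudogenes in mammalian genomes.

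RNA was sequenced from epididymal white adipocytes (eWAs) of lean male C57/BL6J mice, which were floated out of collagenase-digested fat and kept in a hydrogel for 2 days. The 4 groups of 3 libraries differed in treatment alone. DMSO received the vehicle, ISO the β-adrenergic agonist isoproterenol for 3 h, Lip the inhibitors of the lipases ATGL and HSL, and Lip+ISO the inhibitors followed by ISO for 3 h. The comparisons ask how ISO changes gene expression in white adipocytes and how much of that change depends on lipolysis. Per the study's methods the RNA-seq libraries came from independent experiments, so the p-values measure the spread between those, and the labels do not say whether each used separate mice.

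The libraries held 22632220 to 43707557 counts, of which the RP genes took 0.555 to 0.765%. Summed markers of adipocytes (Adipoq, Plin1, Fabp4 and 6 others) stood at 32149 to 48379 CPM (counts relative to library size with TMM scaling), so the adipocyte label holds. Markers of other cells were present at lower levels, and the sums of some lists, but not of all, were higher after ISO. The 10 macrophage markers summed to 51.6 to 66.1 CPM in DMSO and 108 to 163 in ISO (5 of 9 tested rose, against 12.3% of all tested genes). They summed to 56.3 to 61.3 in Lip and 70.3 to 119.6 in Lip+ISO (2 of 9 rose, against 11.5%). The 9 endothelial markers summed to 117 to 225 CPM in DMSO and 270.5 to 491 in ISO, and the 8 fibroblast markers to 339.7 to 609 and 669.7 to 906. In Lip and Lip+ISO the endothelial sums were 60.1 to 196 and 91.7 to 271, and the fibroblast sums 455 to 478 and 395 to 578. The 8 mesothelial markers summed to 29.4 to 72.2 CPM in DMSO and 72.1 to 86.1 in ISO, and the 6 lymphocyte markers to at most 1.23 CPM in any library. Between DMSO and ISO, 1 of 9 endothelial, 3 of 8 fibroblast, 1 of 8 mesothelial, 1 of 6 smooth muscle and 0 of 5 dividing cell markers rose. Between Lip and Lip+ISO the numbers were 1, 0, 1, 0 and 0, and 1 smooth muscle marker fell. No marker of these lists was at 0 in every library. The part of these cells in the RP results was not tested. In RNA from whole cultures, a change in the mix of cells and a change of mRNA per cell cannot be told apart.

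The first bases of some RP transcripts are shown because the TOP tract is what the class is known to share. Each window runs from 10 bases before the RefSeq start in the table to 20 bases from it, on the transcribed strand of mm9, and capitals mark the tract. In Rps6, Rpl11, Rplp2 and Rpl22l1 the tract began at the annotated start. In Rpl27a, Rps9 and Rpl7a it began within 5 bases of it, and in Rplp0 no tract was found there.
Rps6 (chr4:86503252-86503281, minus strand): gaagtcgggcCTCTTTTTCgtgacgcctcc
Rpl11 (chr4:135609267-135609296, minus strand): gtctccctctCTCTTCCTgttctccaccat
Rplp2 (chr7:148633539-148633568, plus strand): tcagcgtcttCCTTTCgccgccggacgccg
Rpl22l1 (chr3:28704423-28704452, plus strand): caagcccgttCTCTTCCCacggctgcagct
Rpl27a (chr7:116662699-116662728, plus strand): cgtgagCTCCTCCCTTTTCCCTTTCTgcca
Rps9 (chr7:3655633-3655662, plus strand): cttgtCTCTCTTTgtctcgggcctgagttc
Rpl7a (chr2:26766317-26766346, plus strand): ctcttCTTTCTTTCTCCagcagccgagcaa
Rplp0 (chr5:116009466-116009495, plus strand): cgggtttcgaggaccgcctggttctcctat

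A tract was counted where a C was followed by at least 4 bases that were each C or T, on the transcribed strand alone. It lay exactly at the annotated start in 14 of the 82 RP genes (17.1%) and in 2.04% of the 20213 other genes. With the start allowed to lie within 5 bases, 35 RP genes (42.7%) and 17.9% of the others had one. These are matches of letters at annotated starts. A run of pyrimidines that begins further into a window, such as the one near the end of that of Rplp0, was not counted.

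Levels of the RP genes were compared per kilobase of counted exon, as the mean CPM over the 12 libraries divided by the counted length. The 75 tested genes with a counted length of at least 100 bp spanned 382-fold. Rpl8 was highest at 633 CPM per kilobase (chr15:76734501-76736748), followed by Rplp0 at 574 (chr5:116009476-116013738) and Rplp1 at 548 (chr9:61761090-61762317). Rpl17 at 1.80 and Rpl19 at 1.65 CPM per kilobase were among the lowest. The products of these genes are present in the ribosome in single copies, apart from the stalk proteins Rplp1 and Rplp2.

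The level of an RP gene went with how much of its coding sequence also occurs elsewhere in the genome. Each coding sequence was cut into all its windows of 50 bases, and each window was searched exactly over mm9 on both strands. The median RP gene had 89.2% of its windows at another place as well, and 66 of 80 genes with coding sequence had more than 50%. Among the 18759 other genes the median was 0 and 5.30% had more than 50%. Rps3 shared 8.05% of its windows, Rpl8 8.83% and Rpl4 20.2%, whereas every window of Rpl9, Rps28 and Rpl19 occurred elsewhere.

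The 11 RP genes with under 50% of windows elsewhere had a median of 284 CPM per kilobase. The 24 genes with 50 to 90% had a median of 71.5, and the 38 genes with over 90% a median of 7.89. Over these 73 genes Spearman's rho between the shared percent and log2 CPM per kilobase was -0.81. All points share the same 12 libraries and are not independent. Whether the alignment of reads from shared sequence lowered these counts was not tested, since how reads with several matches were treated is not given in the sources used here. The order of levels in these files can therefore not be read as an order of mRNA abundance.

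**Figure D1:**
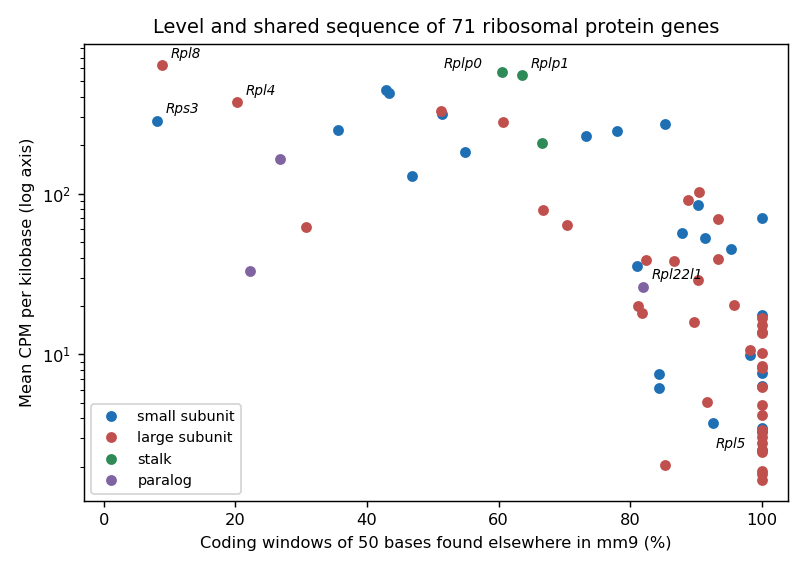
Mean CPM per kilobase over 12 libraries (log axis) against the percent of 50-base coding windows that occur elsewhere in mm9, for 71 of the tested RP genes coloured by class. Rps3, Rpl8 and Rpl4 lie at the top left, Rpl7l1 lies lower at 22.3% and 33.2 CPM per kilobase, Rplp0 lies at the top with 60.4%, and genes near 100% reach down to 1.65 CPM per kilobase.

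Of the 82 genes, 78 passed the filter on low counts and were tested. Rpl10l had no count in any library, Rpl3l at most 7 and Rpl39l at most 9, and these 3 are paralogs known for expression in testis or muscle. Rps27 had at most 5 counts, over a counted length of 1 bp in the table. Rpl26, Rpl30 and Rpl34 were tested but have counted lengths of 23, 43 and 79 bp. Rpl31, Rpl32, Rpl35, Rpl5, Rps25 and Rps27a overlap a gene on the opposite strand, and since no source states that the counting used strand, their counts are uncertain. The same holds for genes whose sequence is mostly shared.

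After ISO, RP mRNAs rose as a broad and shallow shift. The summed level of the RP genes was 5596, 5910 and 5573 CPM in the 3 DMSO libraries, and 6871, 7361 and 7559 CPM in the 3 ISO libraries. The ISO libraries all lay above the DMSO libraries, and the mean was 27.6% higher. With the inhibitors alone the sum was 5630, 6177 and 5720 CPM, and 2 of these 3 libraries lay within the range of DMSO. In Lip+ISO it was 6897, 7164 and 6707 CPM, above all Lip libraries and 18.5% higher on the mean.

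Each part of the ribosome was also summed on its own. From DMSO to ISO the small subunit rose from 2456 ± 87.2 to 3163 ± 146 CPM (SD, n = 3), the large subunit from 2085 ± 85.6 to 2646 ± 138 and the stalk from 985 ± 12.4 to 1269 ± 69.0. From Lip to Lip+ISO they went from 2515 ± 144 to 2948 ± 105, from 2137 ± 121 to 2561 ± 131 and from 1027 ± 24.4 to 1229 ± 13.3. For each of the 3 parts, every library with ISO lay above every library without it, with the inhibitors or without them. As a share of all counts in a library, without TMM scaling, the RP genes took 0.578 ± 0.0380% in DMSO, 0.718 ± 0.0646% in ISO, 0.607 ± 0.0468% in Lip and 0.666 ± 0.0461% in Lip+ISO. On this scale the Lip and Lip+ISO libraries overlapped, since the highest Lip library held 0.660% and the lowest Lip+ISO library 0.619%.

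**Figure D2:**
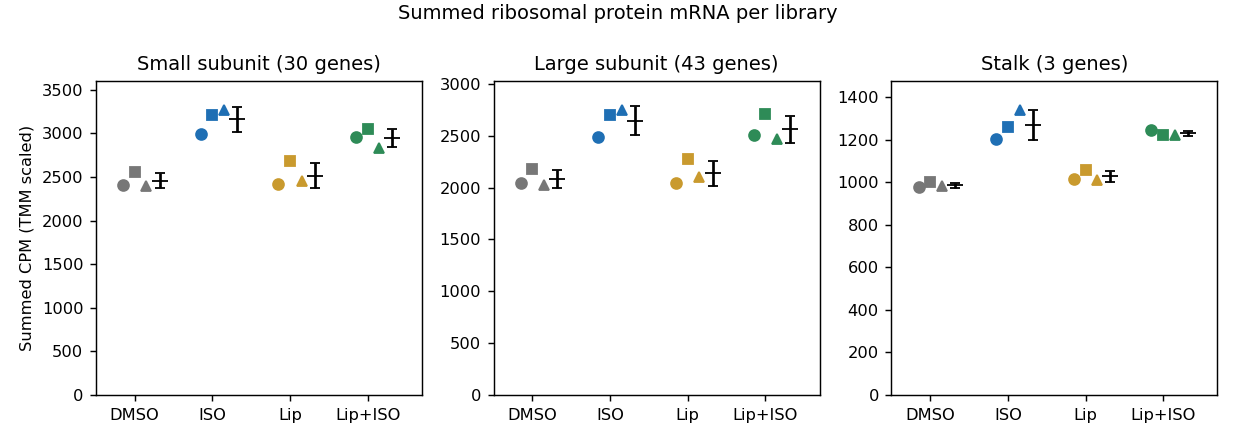
Summed TMM-scaled CPM of the small subunit, large subunit and stalk genes in each of the 12 libraries, with replicates 1, 2 and 3 as circle, square and triangle and the mean ± SD of 3 libraries in black. The ISO and Lip+ISO libraries lie above the DMSO and Lip libraries in all 3 panels.

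Comparing ISO with DMSO by edgeR's quasi-likelihood test, 43 of the 78 tested RP genes rose and 0 fell at an adjusted p of at most 0.05. Of all 13543 tested genes, 12.3% rose and 13.9% fell. At an unadjusted p under 0.05, 56 RP genes were higher and 0 lower, against 18.9% and 20% of all genes. With DESeq2, 50 of 80 tested RP genes rose and 0 fell, and 13.3% of all genes rose. In the fit blocked on replicate number 56 rose, and 18.8% of all genes did. The median log2 fold change of the RP genes was 0.39, against 0.00 over all genes tested, and 75 of 78 values were above 0, against 50.2% of all genes. The libraries of the 2 groups did not overlap for 55 RP genes, all with ISO above, against 20.7% of all tested genes. Among the 47 RP genes with at least 10 CPM, 35 rose, against 13.2% of all genes at that level. The changes were small, and 3 RP genes passed with a log2 fold change of at least 1, against 5.68% of all genes.

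The number of RP genes that passed the test depended on which libraries were present. It was 28 without DMSO replicate 1, 24 without DMSO replicate 3, 24 without ISO replicate 2 and 26 without ISO replicate 3. The share of all tested genes that rose fell with it, to 7.69, 7.72, 8.67 and 8.94%. With 2 libraries a group 27, 15 and 10 RP genes rose without replicate 1, 2 and 3 of every group, against 8.53, 7.75 and 6.48% of all genes. With library totals in place of TMM scaling the count was 28, and 10.1% of all tested genes then rose. No RP gene was called lower in these fits.

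Among the stalk proteins, which recruit the elongation factors to the ribosome, Rplp0 stood at 667, 695 and 689 CPM in DMSO and 824, 889 and 939 CPM in ISO. The groups did not overlap, and the log2 fold change was 0.37 ± 0.07 (SE, adjusted p = 0.00237). Rplp1 was at 226, 223 and 217 CPM in DMSO and 286, 274 and 305 CPM in ISO, a change of 0.38 ± 0.07 (adjusted p = 0.00235). Rplp2 was at 83.0, 81.7 and 76.5 CPM in DMSO and 94.3, 97.5 and 97.2 CPM in ISO, a change of 0.26 ± 0.07 (adjusted p = 0.0200). Rplp0 lost its call when replicate 2 was left out of every group (adjusted p = 0.0724), and Rplp2 without DMSO replicate 3, ISO replicate 2 or ISO replicate 3 (up to 0.0974) and without replicate 2 or 3 of every group (up to 0.180).

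Of the small subunit, 19 of 29 tested genes rose, with a median log2 fold change of 0.39. Rps9, which lies at the entry of the mRNA channel, had the smallest p of the RP genes. It was at 262, 267 and 251 CPM in DMSO and 333, 340 and 341 CPM in ISO, an increase of 0.38 ± 0.06 on the log2 scale (adjusted p = 0.000997). Rps3, also at the mRNA entry, went from 472, 495 and 455 CPM to 577, 607 and 637 CPM (0.36 ± 0.08, adjusted p = 0.00480). The call of Rps9 held with any library or replicate number left out, and that of Rps3 was lost without replicate 2 or 3 of every group (up to 0.0758).

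The X-linked Rps4x rose by 0.46 ± 0.09 (adjusted p = 0.00308), from 59.8, 67.2 and 62.5 CPM to 76.3, 91.4 and 92.8 CPM, and lost the call without replicate 3 of every group (0.0567). Rps6, the substrate of the S6 kinases, was at 7.20, 8.77 and 6.81 CPM in DMSO and 9.60, 8.95 and 11.4 CPM in ISO. Its groups did not overlap, but the change of 0.39 ± 0.19 did not pass the test (adjusted p = 0.147). Rps28 had a log2 fold change of 1.22 ± 0.41 (adjusted p = 0.0459), which rested on 8 to 27 counts in DMSO and 26 to 60 in ISO. The call was lost without any of 10 single libraries, and without replicate 3 of every group the adjusted p was 0.361.

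Of the large subunit, 20 of 43 genes rose, with a median of 0.39. Rpl8, the protein at the peptidyl transferase center with the highest level per kilobase, was at 479, 505 and 479 CPM in DMSO and 563, 642 and 637 CPM in ISO (0.33 ± 0.08, adjusted p = 0.0105). Rpl4, which lines the exit tunnel, was at 469, 486 and 484 CPM and at 558, 558 and 610 CPM (0.26 ± 0.07, adjusted p = 0.0131). For both genes the groups did not overlap. Rpl27a rose from 15.4, 17.2 and 16.0 CPM to 20.1, 24.9 and 24.4 CPM (0.52 ± 0.14, adjusted p = 0.0155), and Rpl13 from 10.2, 10.3 and 8.73 CPM to 11.8, 14.5 and 15.4 CPM (0.52 ± 0.14, adjusted p = 0.0163). With Rpl22l1, these are the RP genes of at least 10 CPM that rose the most. All coding windows of Rpl27a and Rpl13 and 81.9% of those of Rpl22l1 also occur elsewhere, so their counts are uncertain.

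Rpl3, the other large protein close to the peptidyl transferase center, rose by 0.44 ± 0.13 (adjusted p = 0.0244) and Rpl7a by 0.38 ± 0.10 (0.0122). Rpl8 lost its call without replicate 2 or 3 of every group (up to 0.125). Leaving out single libraries ended the calls of Rpl4 (without DMSO replicate 1 or ISO replicate 3, up to 0.0553), Rpl7a (without DMSO replicate 1 or ISO replicate 2, up to 0.0655) and Rpl27a (without DMSO replicate 1 or 3 or ISO replicate 2 or 3, up to 0.0649). They also ended those of Rpl13 (without DMSO replicate 3 or ISO replicate 2 or 3, up to 0.0759) and Rpl3 (without DMSO replicate 1 or 3 or ISO replicate 1 or 2, up to 0.0974). With a replicate number left out of every group, the adjusted p went up to 0.127 for Rpl4, 0.166 for Rpl7a and 0.0932 for Rpl27a. For Rpl13 and Rpl3 it went up to 0.199 and 0.150. Rpl9, with 19 to 36 counts in DMSO and 48 to 113 in ISO, had the largest log2 fold change, 1.28 ± 0.27 (adjusted p = 0.00418), and held its call without any single library, but lost it without replicate 2 or 3 of every group (0.0675 and 0.0552).

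Rpl5 and Rpl11, which bind Mdm2 when ribosome assembly is disturbed, were counted at 0.744 to 3.32 CPM in these 6 libraries and gave wide intervals. The log2 fold changes were 0.25 ± 0.31 (adjusted p = 0.583, 95% interval -0.42 to 0.92) and 0.60 ± 0.36 (adjusted p = 0.239, interval -0.18 to 1.39). Every coding window of both genes also occurs elsewhere, and no change was detectable at these counts. The 3 RP genes with values below 0 were Rpl34, Rpl35 and Rpl23a, at 0.00 ± 0.52, -0.05 ± 0.29 and -0.38 ± 0.31, and none passed the test.

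Of the 3 paralogs that could be tested, 1 rose. Rpl22l1 (chr3:28704433-28706337), which can take the place of Rpl22 in the ribosome, was at 9.63, 10.2 and 9.28 CPM in DMSO and 15.3, 16.3 and 14.9 CPM in ISO. The groups were well apart, and the log2 fold change of 0.67 ± 0.12 (adjusted p = 0.00147) held with any library or replicate number left out. Rpl22 itself was at 118, 135 and 108 CPM in DMSO and 145, 150 and 153 CPM in ISO. Its change of 0.32 ± 0.11 stood at an adjusted p of 0.0529, and at 0.00555 once the replicate number was a block. The difference between the changes of Rpl22l1 and Rpl22 was not tested.

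Rps27l, a target of p53, was at 71.5, 72.2 and 67.5 CPM in DMSO and 80.1, 80.4 and 84.9 CPM in ISO (0.22 ± 0.08, adjusted p = 0.0683, with the replicate block 0.0345). Rpl7l1, which acts in the assembly of the large subunit, was at 79.1, 88.7 and 90.8 CPM and at 84.1, 92.9 and 91.5 CPM. These groups overlapped, and the change of 0.05 ± 0.08 had a 95% interval of -0.11 to 0.22, which lies below the median of the RP genes. The parent gene Rpl7 rose by 0.25 ± 0.07 (adjusted p = 0.0242), a call that ended without DMSO replicate 1 or 3 or ISO replicate 2 or 3 (up to 0.102). Rpl10 rose by 0.68 ± 0.21 (adjusted p = 0.0305), ending without the same 4 libraries (up to 0.111). With a replicate number left out of every group, Rpl7 and Rpl10 went up to 0.152 and 0.290. Rpl39 stood at 0.37 ± 0.13 (adjusted p = 0.0507, with the block 0.00862). Rpl26 was at 0.29 ± 0.29 with an interval of -0.35 to 0.92.

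**Figure D3:**
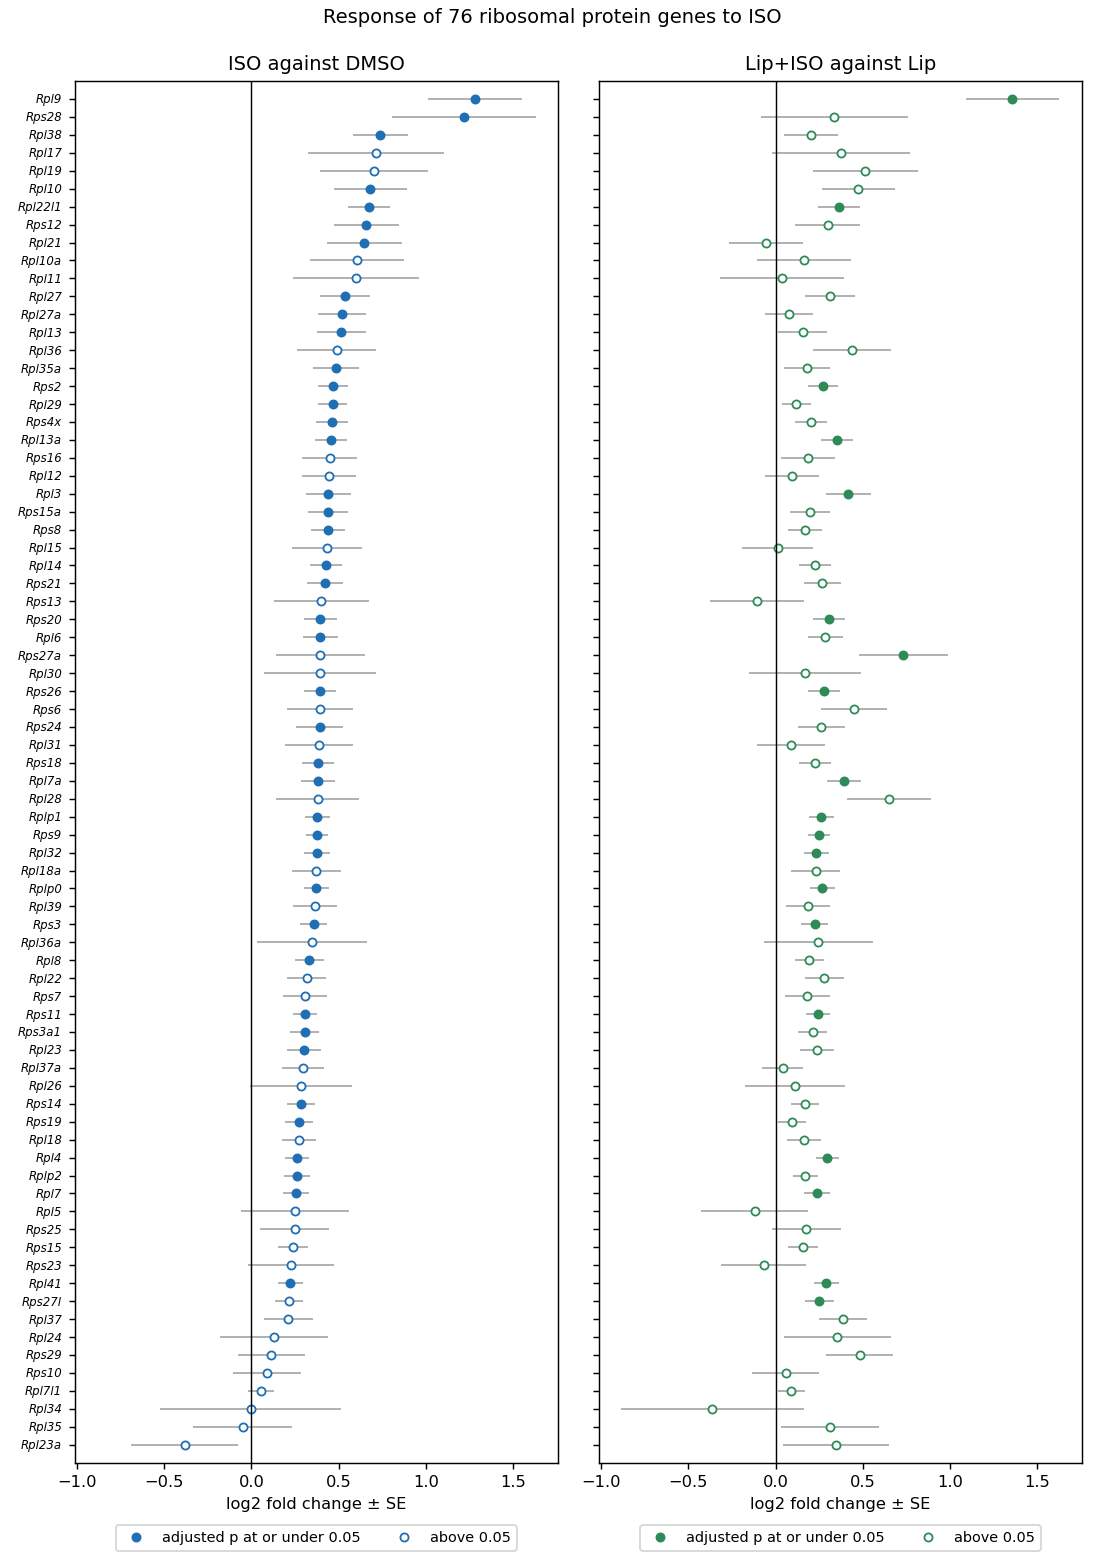
Log2 fold change ± SE of 76 of the 78 tested RP genes for ISO against DMSO and for Lip+ISO against Lip, in the order of the first. Filled circles mark an adjusted p of at most 0.05, 41 in the left panel and 19 in the right, all to the right of 0.

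With lipolysis inhibited, ISO was again followed by higher RP levels. Between Lip+ISO and Lip, 20 of 78 RP genes rose and 0 fell, whereas 11.5% of all tested genes rose and 15.8% fell. The median log2 fold change was 0.24, against 0.00 over all genes, and 73 of 78 values were above 0, against 49.5% of all genes. At an unadjusted p under 0.05, 36 RP genes were higher and 0 lower, against 15.9% and 20.8% of all genes. With DESeq2 32 rose, against 13.6% of all genes, and, blocked on replicate number, 31 did, against 15.5%. Library groups did not overlap for 36 RP genes, with Lip+ISO above, against 17.2% of all tested genes. Of the 47 RP genes with at least 10 CPM, 18 rose, against 14.8% of genes at that level. Rpl9 alone passed with a log2 fold change of at least 1, against 4.19% of all genes.

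This count also depended on the libraries. It was 7 without Lip replicate 1, 6 without Lip replicate 3 and 9 without Lip+ISO replicate 2, which is 8.97, 7.69 and 11.5% of the RP genes, against 9.25, 9.34 and 10.4% of all tested genes. Dropping replicate 1, 2 or 3 from every group left 7, 2 and 8, or 8.97, 2.56 and 10.3%, against 8.85, 6.87 and 7.77% of all genes. With library totals in place of TMM scaling it was 1, or 1.28%, against 7.89%. The share of RP genes called was below that of all genes in 4 of these 7 fits. In the scaling by library totals the median over all genes was -0.12 and that of the RP genes 0.12. The 2 comparisons have no library in common, but both come from 1 fit over all 12 libraries. In it 18 genes rose in both, which is 41.9% of the 43 and 90% of the 20. The same overlap over all tested genes was not counted. Over the 47 RP genes with at least 10 CPM, Spearman's rho between the 2 changes was 0.05. Of the 20 genes, Rps27a and Rps27l passed only between Lip+ISO and Lip. The interaction test gave an adjusted p of 0.742 and 0.937 for them.

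Rplp0 was at 702, 725 and 690 CPM in Lip and 853, 836 and 862 CPM in Lip+ISO (0.27 ± 0.07, adjusted p = 0.0138). Rplp1 was at 229, 242 and 231 CPM and at 302, 278 and 263 CPM (0.26 ± 0.07, adjusted p = 0.0171). Neither gene's groups overlapped. Rplp2 was at 84.2, 88.3 and 88.7 CPM and at 89.5, 106 and 98.5 CPM (0.17 ± 0.07, adjusted p = 0.108). Single libraries decided these calls, without Lip replicate 3 for Rplp0 (0.0519) and without Lip replicate 1 or 3 or Lip+ISO replicate 1 for Rplp1 (up to 0.062). With library totals both were lost (0.185 and 0.210). With a replicate number left out of every group, the adjusted p of each went up to 0.137.

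Rpl4 went from 465, 492 and 472 CPM in Lip to 592, 584 and 581 CPM in Lip+ISO (0.30 ± 0.07, adjusted p = 0.00540). Rps9 went from 262, 283 and 266 CPM to 322, 318 and 326 CPM (0.25 ± 0.06, adjusted p = 0.0106). In both genes the groups were apart. Rpl3 rose by 0.42 ± 0.13 (adjusted p = 0.0295) and Rpl7a by 0.39 ± 0.10 (0.00902), and with Rpl22l1 they lead the RP genes of at least 10 CPM. Of the coding windows of Rpl3 and Rpl7a, 95.7% and 93.4% also occur elsewhere. Rpl9 was highest at 1.36 ± 0.27 (adjusted p = 0.00194), from 30 to 44 counts in Lip and 64 to 92 in Lip+ISO.

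Of these, Rpl9 held its call in every fit with a library or replicate number left out. Rpl7a, Rpl4 and Rps9 held theirs without any single library. They lost them in fits without a replicate number, Rpl7a at up to 0.114, Rpl4 at 0.0923 and Rps9 at up to 0.0970. Rpl3 lost its call without Lip replicate 1 or 3 or Lip+ISO replicate 2 or 3 (up to 0.110). It also lost it without replicate 1 or 3 of every group (up to 0.263). Rpl22l1 was at 11.5, 11.5 and 9.99 CPM in Lip and 12.3, 16.0 and 14.1 CPM in Lip+ISO. The groups just did not overlap (0.36 ± 0.12, adjusted p = 0.0408), and the call was lost without any of 11 single libraries (up to 0.158 without Lip+ISO replicate 2). It was also lost without replicate 2 or 3 of every group (up to 0.271).

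Rps27l was at 68.1, 71.7 and 67.1 CPM in Lip and 89.3, 84.9 and 72.1 CPM in Lip+ISO (0.25 ± 0.08, adjusted p = 0.0365), and Rps27a, which is made as a fusion with ubiquitin, stood at 1.55 to 1.97 and 2.03 to 3.60 CPM (0.73 ± 0.25, adjusted p = 0.0489, with the block 0.0510). Their calls ended in 9 and 11 of the 12 fits without a single library, up to 0.137 and 0.170 without Lip+ISO replicate 1. With a replicate number left out of every group they went up to 0.255 and 0.362. With the replicate block, Rpl22 (0.28 ± 0.11, adjusted p = 0.0834), Rpl8 (0.19 ± 0.08, 0.105) and Rps4x (0.20 ± 0.09, 0.132) passed at 0.0129, 0.0279 and 0.0398. Rpl27a and Rpl13 were at 0.08 ± 0.14 and 0.16 ± 0.14 (adjusted p = 0.743 and 0.465), and Rpl7l1 at 0.09 ± 0.08 (0.439).

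The inhibitors alone left no RP gene past the test. Between Lip and DMSO, 0 RP genes were called by edgeR and 0 by DESeq2, with 0.00738% of all tested genes higher and 0.0443% lower. At an unadjusted p under 0.05, 4 RP genes were higher and 0 lower, against 2.33% and 1.97% of all genes. These were Rpl21 (0.54 ± 0.21), Rpl38 (0.42 ± 0.16), Rpl37a (0.33 ± 0.12) and Rpl29 (0.22 ± 0.08). The median of the 78 log2 fold changes was 0.04, with 55 above 0, against 50.6% of all genes, and 52 of the 78 intervals of 95% lay within 0.5 of 0 on either side. For Rplp0 the change was 0.05 ± 0.07 with an interval of -0.11 to 0.20.

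In the presence of ISO the inhibitors also called no RP gene, although 4.36% of all tested genes were higher and 4.59% lower in Lip+ISO than in ISO. Both edgeR and DESeq2 gave 0 RP genes in either direction, and at an unadjusted p under 0.05 edgeR gave 0 higher and 3 lower, against 11.1% and 12.8% of all genes. These were Rps28 (-0.92 ± 0.41, on 17 to 22 counts in Lip+ISO), Rpl12 (-0.39 ± 0.15) and Rpl27a (-0.35 ± 0.14). The median was -0.08, with 21 of 78 values above 0, against 48.6% of all genes. For Rplp0 the difference was -0.06 ± 0.07 with an interval of -0.21 to 0.10. In the fit blocked on replicate number 3 RP genes were called lower, and 1458 of the 13543 tested genes were. These 3 were Rpl12, Rpl27a and Rpl15 (adjusted p = 0.0450, 0.0468 and 0.0187).

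**Figure D4:**
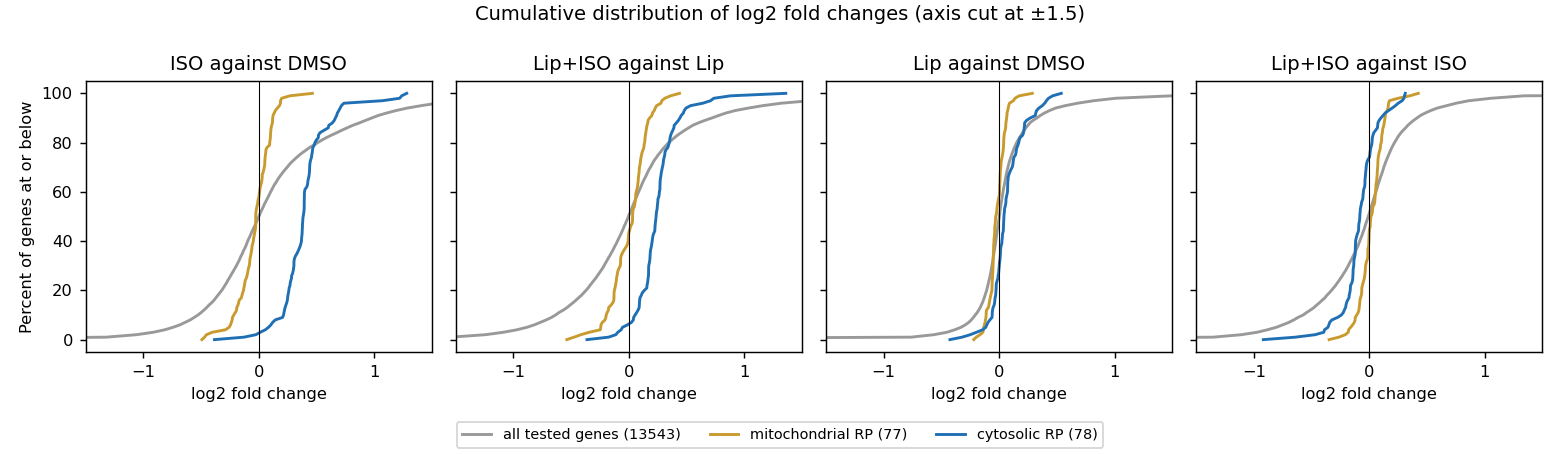
Cumulative percent of genes at or below each log2 fold change for 78 cytosolic RP genes, 77 mitochondrial RP genes and all 13543 tested genes in 4 comparisons (the axis ends at 1.5 on either side). In both comparisons with ISO the cytosolic curve lies to the right, with medians of 0.39 and 0.24, and in both comparisons of the inhibitors it lies near 0, with medians of 0.04 and -0.08.

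The interaction term, which subtracts the change from DMSO to ISO from the change from Lip to Lip+ISO, was called for 0 RP genes by edgeR and for 0 by DESeq2. Over all tested genes it was called higher for 0.901% and lower for 0.724%. At an unadjusted p under 0.05, 0 RP genes were higher and 4 lower, against 6.45% and 7.34% of all genes. These were Rpl21 (-0.70 ± 0.30), Rpl38 (-0.53 ± 0.22), Rpl27a (-0.44 ± 0.20) and Rpl29 (-0.35 ± 0.12). Of these 4, Rpl21, Rpl38 and Rpl29 were also among the genes higher in Lip than in DMSO at that threshold, and the 2 comparisons share the Lip and DMSO libraries. Rpl29, a large subunit protein, was at 17.1 ± 0.424 CPM in DMSO, 23.6 ± 0.909 in ISO, 19.9 ± 0.0947 in Lip and 21.7 ± 1.46 in Lip+ISO (SD, n = 3). The Lip libraries lay between those of DMSO and ISO.

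The median interaction over the RP genes was -0.14, against -0.02 over all genes, and 14 of 78 values were above 0, against 47.3% of all genes. Of the 95% intervals, 74 included 0, 31 lay within 0.5 of 0 on either side and 57 within 1. For Rplp0 the interaction was -0.10 ± 0.10 (interval -0.32 to 0.12), for Rps9 -0.13 ± 0.09 (-0.32 to 0.07), for Rpl4 0.04 ± 0.10 (-0.17 to 0.24) and for Rpl22l1 -0.31 ± 0.17 (-0.68 to 0.06). A smaller or an equal response with the inhibitors lies within most of these intervals. The rise of the RP genes between DMSO and ISO is thus not shown to differ from that between Lip and Lip+ISO for any single gene.

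RP genes with and without an annotated TOP tract gave close medians, which were not tested against each other. Between ISO and DMSO, 20 of 34 tested RP genes with a tract within 5 bases of the start rose (58.8%) and 23 of 44 without it (52.3%). Of all tested genes 12.3% rose there. The medians of the 2 parts were 0.39 and 0.37. Between Lip+ISO and Lip the numbers were 11 of 34 (32.4%) and 9 of 44 (20.5%), against 11.5% of all tested genes, with medians of 0.24 and 0.24. Of the genes printed above, Rpl22l1 and Rplp2 have a tract at the start and Rplp0 has none there, and all 3 rose after ISO.

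RP genes were also split by the percent of coding windows found elsewhere, and both parts had medians above 0. This split was made after the values were seen. Of the 11 tested RP genes with under 50% of windows elsewhere, 7 rose between DMSO and ISO and 6 between Lip and Lip+ISO, with medians of 0.32 and 0.25. Of the 65 with 50% or more, 34 and 13 rose, with medians of 0.39 and 0.23. As shares these are 63.6% and 54.5% of the 11 and 52.3% and 20% of the 65, against 12.3% and 11.5% of all tested genes. Over 45 RP genes with at least 10 CPM, Spearman's rho between the shared percent and the change from DMSO to ISO was 0.49. Whether the placement of reads affected these changes was not tested. RP transcripts are short, and the 921 other tested genes with a counted length under 1000 bp had medians of 0.05 and 0.08, with 7.93% and 9.34% higher. With a trend on length taken out of each library, 39 RP genes rose between DMSO and ISO (median 0.34), against 13.6% of all genes. Between Lip and Lip+ISO 9 did (median 0.17), which is 11.5% of the RP genes against 13.8% of all genes, or 17 with the replicate block added, 21.8% against 18.7%.

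The mitochondrial ribosome translates the mRNAs of mitochondrial DNA. Of 77 genes for its proteins, 1 rose and 3 fell between DMSO and ISO (1.30% and 3.90%, against 12.3% and 13.9% of all genes), with a median of -0.03. Between Lip and Lip+ISO, 2 rose and 3 fell, with a median of 0.03. Of 5 ribosomal genes listed outside the naming rule, 2 rose in each comparison. Gnb2l1, the scaffold RACK1 on the small subunit, was at 520, 562 and 566 CPM in DMSO, 657, 722 and 746 in ISO, 527, 569 and 535 in Lip and 680, 664 and 646 in Lip+ISO. It rose by 0.37 ± 0.08 and 0.29 ± 0.08 (adjusted p = 0.00364 and 0.0126). Fau rose by 0.53 ± 0.14 in Lip+ISO against Lip (0.0149). These calls were lost without replicate 2 or 3 of every group (up to 0.0833 and 0.121 for Gnb2l1 and 0.115 for Fau).

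Of 18 other genes of translation, most of which also carry TOP tracts, 8 rose and 0 fell between DMSO and ISO, and 6 rose and 0 fell between Lip and Lip+ISO. The shares that rose were 44.4% and 33.3%, against 12.3% and 11.5% of all genes. The nucleolar chaperone Npm1 rose by 0.49 ± 0.09 and 0.30 ± 0.09 (adjusted p = 0.00128 and 0.0194), and Tpt1, an abundant TOP mRNA, by 0.47 ± 0.12 and 0.46 ± 0.12 (0.0109 and 0.01). The second call of Npm1 ended without Lip replicate 1 or 3 or Lip+ISO replicate 2 (up to 0.0708), and the first of Tpt1 without DMSO replicate 3 or ISO replicate 2 (up to 0.0568). Npm1 was at 70.7, 83.4 and 79.6 CPM in DMSO and 103, 107 and 117 CPM in ISO, with no overlap. The medians of the 18 genes were 0.25 and 0.18.

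Of 13 genes of RNA polymerase I and its factors, which make the ribosomal RNA, 1 rose and 1 fell between DMSO and ISO (7.69% each, against 12.3% and 13.9% of all genes). Between Lip and Lip+ISO 4 rose and 2 fell (30.8% and 15.4%, against 11.5% and 15.8%). Polr1b, the second largest subunit of that polymerase and also on the biogenesis list, was at 16.3, 18.2 and 21.0 CPM in DMSO, 11.1, 14.6 and 13.9 in ISO, 14.1, 19.4 and 19.6 in Lip and 7.16, 9.41 and 8.90 in Lip+ISO. It fell by 0.48 on the log2 scale between DMSO and ISO (SE 0.17, adjusted p = 0.0472) and by 1.06 between Lip and Lip+ISO (SE 0.17, adjusted p = 0.000403). The first call was lost without any of 7 single libraries (up to 0.169 without DMSO replicate 3) and the second was kept in each such fit. Taf1d, a factor of the polymerase's promoter complex, rose by 0.78 ± 0.15 after ISO (adjusted p = 0.00179), and Taf1b of the same complex fell by 0.82 between Lip and Lip+ISO (SE 0.15, 0.00139), a call lost without replicate 2 of every group (0.0648).

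Of 34 genes of ribosome biogenesis, 7 rose and 1 fell between DMSO and ISO (20.6% and 2.94%), and 4 rose and 4 fell between Lip and Lip+ISO (11.8% each, near the share of all genes that rose). Gnl3, which encodes nucleostemin, rose by 0.45 ± 0.13 after ISO (adjusted p = 0.0207), a call that ended without DMSO replicate 1 or 2 or ISO replicate 2 or 3 (up to 0.0924). Nop56, a core protein of the methylation guide complexes, rose by 0.45 ± 0.13 in Lip+ISO against Lip (0.0235), ending without Lip replicate 1 or 2 or Lip+ISO replicate 3 (up to 0.0872). In Lip+ISO against ISO, 5 of the 34 fell and 0 rose (14.7% lower, against 4.59% of all genes), among them Heatr1 (-0.53 ± 0.15, adjusted p = 0.0440) and Polr1b (-0.64 ± 0.17, 0.0343). Heatr1 lost its call without any of 9 single libraries (up to 0.167), and Polr1b without ISO replicate 2 or 3 or Lip+ISO replicate 1 or 3 (up to 0.133). No RP gene was called in that comparison without the replicate block.

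Of 22 regulators of ribosome production and of TOP mRNAs, 4 rose and 6 fell between DMSO and ISO (18.2% and 27.3%, against 12.3% and 13.9% of all genes). Between Lip and Lip+ISO 3 rose and 5 fell (13.6% and 22.7%, against 11.5% and 15.8%). Eif4e, the cap-binding protein, was at 41.9, 41.4 and 41.4 CPM in DMSO, 137, 121 and 142 in ISO, 42.5, 40.1 and 38.4 in Lip and 170, 168 and 210 in Lip+ISO. It rose by 1.68 ± 0.10 and 2.18 ± 0.10 on the log2 scale (adjusted p = 2.01e-07 and 7.87e-09) and stood higher in Lip+ISO than in ISO (0.46 ± 0.09, adjusted p = 0.00871), the last of these calls being lost without replicate 2 or 3 of every group (0.106 and 0.0596).

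Ddit4, an inhibitor of mTORC1, rose by 1.55 ± 0.17 and 1.55 ± 0.17 (adjusted p = 3.31e-05 and 2.11e-05), and Sesn1, another inhibitor of that pathway, fell by 1.07 and 1.61 (SE 0.11 each, adjusted p = 2.15e-05 and 4.63e-07). Myc, a transcription factor that drives RP and biogenesis genes in many cells, was at 50.4, 54.5 and 58.3 CPM in DMSO, 62.6, 66.4 and 68.5 in ISO, 54.0, 58.7 and 61.8 in Lip and 22.1, 29.3 and 29.1 in Lip+ISO. It fell by 1.12 between Lip and Lip+ISO (SE 0.11, adjusted p = 7.10e-06). Whether Myc acts on the RP genes in these cultures was not tested. Between DMSO and ISO it stood at 0.27 ± 0.11 (adjusted p = 0.0738, with the block 0.00857).

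**Figure D5:**
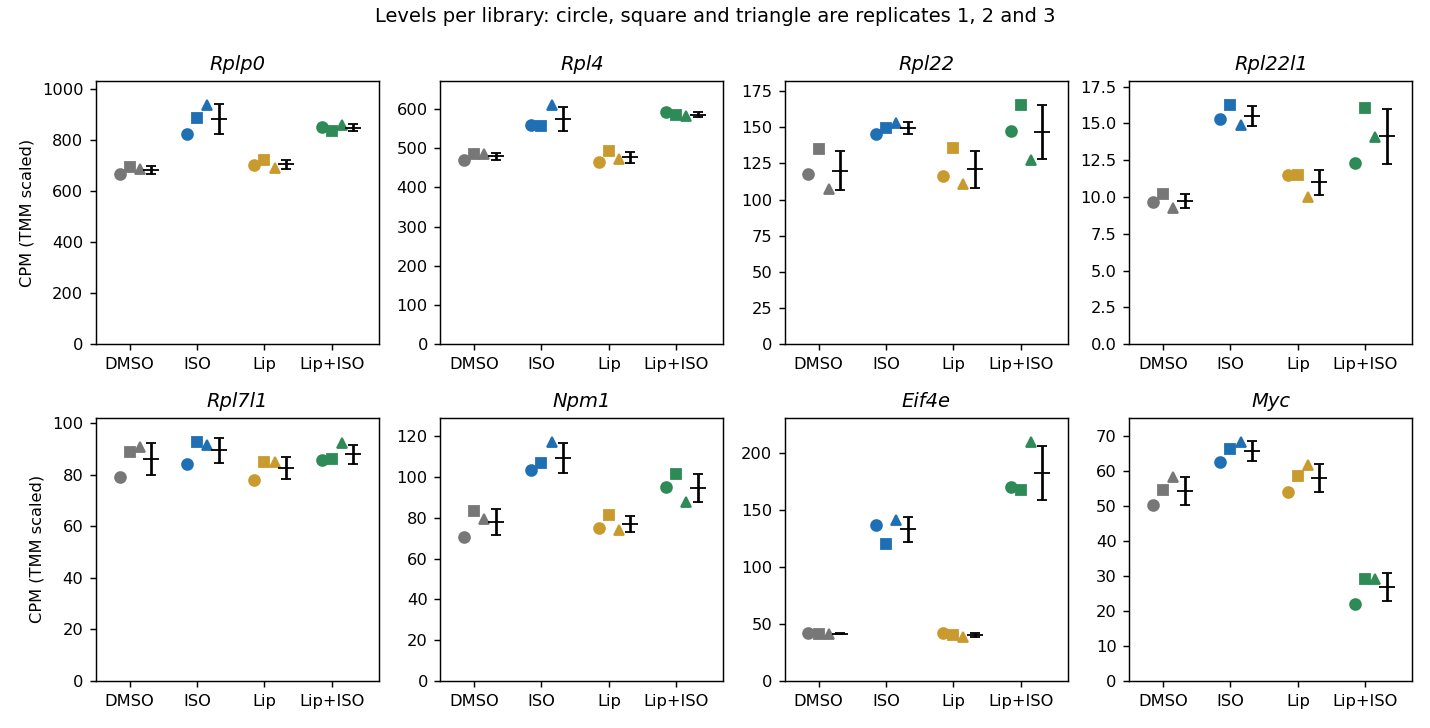
TMM-scaled CPM per library of 5 RP genes (Rplp0, Rpl4, Rpl22, Rpl22l1 and Rpl7l1) and of Npm1, Eif4e and Myc in the 4 groups, with the mean ± SD of 3 libraries in black. Rplp0, Rpl4 and Rpl22l1 are higher in both groups with ISO, Rpl7l1 overlaps between DMSO and ISO, and Myc is lowest in Lip+ISO at 22.1 to 29.3 CPM.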

How the data were processed

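Libraries prepared from total RNA of 12 samples with a TruSeq2 protocol were sequenced, and the authors deposited raw counts per gene, with no normalization. Per the labels and the study's methods, reads were aligned to mm9 with STAR 2.4.2a and counted per RefSeq gene with HOMER, at 1 read per position and length, and iRNA-seq. An RP gene still reached 32.9 counts per base pair of counted length. The table also gives lengths in base pairs, used as lengths. Totals were 22632220 to 43707557 counts, and intervals cover the spread between libraries.

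The 13543 genes kept by filterByExpr were TMM-scaled and fitted with edgeR 4.0.16 in R 4.3.3, over all 12 libraries with 1 mean per group. Each contrast was tested with the two-sided quasi-likelihood F-test with Benjamini-Hochberg adjustment over all tested genes, and genes at an adjusted p of at most 0.05 were called. Groups came from sample titles. Alternatives included DESeq2 1.42.0, other scalings and filters, a length trend and leaving out libraries. For ISO against DMSO, the main fit and the fit with a length trend were also run on simulated counts, drawn independently for each library. The other fits and contrasts were not simulated. Same-numbered libraries deviated together, with correlations of 0.139 to 0.331 between DMSO and ISO, 0.192 to 0.298 between Lip and Lip+ISO and 0.197 to 0.369 between DMSO and Lip. Fits with the replicate number as a block were therefore run. Calls of named genes that they change are given beside the results or under the dependence on the processing. Between ISO and Lip+ISO the correlations were 0.0373 to 0.311. Windows were read from NCBIM37 (mm9).

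The genes and lists were chosen with earlier results of these data known. Genes named are the stalk genes, Rps6, Rpl5, Rpl11, the paralogs and their parents, up to 3 called RP genes per contrast and direction with the largest change at 10 CPM or more, those highest and lowest per kilobase, and up to 2 called genes per list and contrast. The others were chosen after their values were seen. A few genes counted in these totals are not reported here by name.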

Additional observations from a re-analysis of the deposited data

Results flagged for a closer look

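The response of Myc to ISO differed between cultures with and without lipase inhibitors by -1.39 on the log2 scale (SE 0.15, adjusted p = 0.000761, edgeR's interaction test). Its mean level was 54.4 CPM in DMSO and 65.8 in ISO, and 58.2 in Lip and 26.8 in Lip+ISO, each over 3 libraries. Without replicate 2 of every group the adjusted p was 0.0682. No RP gene had an interaction that passed the same test.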

How the results depend on the processing

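Between DMSO and ISO the number of RP genes that rose was 43, and 3 with a log2 fold change of at least 1 also required. Of all tested genes, 12.3% and 5.68% did. With library totals alone it was 28, against 10.1% of all genes. When a library or a replicate number was left out it was 10 to 46, against 6.48% and 13.2% in the same fits. Between Lip and Lip+ISO it was 20, and 1 with that fold, against 11.5% and 4.19% of all genes. It was 1 with library totals, 32 with DESeq2 and 10 with no filter on low counts, against 7.89%, 13.6% and 7.23%. With the replicate block it was 31, against 15.5%. The length offset gave 9, or 11.5% of the RP genes against 13.8% of all genes. With only the 2 groups compared it was 7, or 8.97% against 9.32%. It was 2 to 23 when libraries were left out, against 6.87% and 11.1% in the same fits. The median there was 0.12 with library totals. Between ISO and Lip+ISO the replicate block gave 3 lower RP genes, and 2 with the length offset added. Of the 13543 tested genes, 1458 and 1281 were lower in these fits. Same-numbered libraries of these 2 groups had correlations of 0.0373 to 0.311. Between DMSO and ISO the direction turned for Rpl11 (-0.054 to 0.967 with libraries left out, lowest without replicate 3) and Rpl7l1 (-0.0059 to 0.0947, lowest without DMSO replicate 1), neither of them called. The RP share of counts per kilobase was 1.61, 1.98, 1.69 and 1.83% in DMSO, ISO, Lip and Lip+ISO, and without the paralogs and the 3 genes with most counts the share of counts was 0.394, 0.491, 0.414 and 0.456%. A TOP tract within 5 bases of the start was found in 42.7% of RP genes and 17.9% of others. With the replicate block 56 RP genes rose between DMSO and ISO, against 18.8% of all genes. Beside the calls given in the report, the block brought Rpl12 (adjusted p = 0.0130), Rpl15 (0.00585) and Rpl37a (0.0416) past the threshold there, and Rpl12 (0.0450), Rpl27a (0.0468) and Rpl15 (0.0187) between ISO and Lip+ISO. It changed no other call of an RP gene named here. Of the other named genes, Nop56 passed with the block between DMSO and ISO (adjusted p = 0.00513). Between ISO and Lip+ISO, Sesn1 (0.0408), Taf1d (0.0199) and Ddit4 (0.0152) passed with it. So did the interactions of Sesn1 (0.0476), Eif4e (0.0298) and Polr1b (0.0310). The cause of these differences was not tested. Depth limits Rpl5, Rpl11, Rps28 and other RP genes with few counts, such as Rpl34 with 6 to 26 counts per library.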

Other observations

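Over the 78 tested RP genes, the log2 fold changes between DMSO and ISO and between Lip and Lip+ISO, which share no library, had a Spearman's rho of 0.20 and a Pearson's r of 0.46. Over the 47 genes with at least 10 CPM the values were 0.05 and 0.14. Over 45 genes with at least 10 CPM, rho between the percent of coding windows found elsewhere and the change from DMSO to ISO was 0.49. The points of each come from the same libraries and are genes, not replicates.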
